A study of Mus musculus with 6 samples.

Results

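The nuclear genes for subunits of respiratory complexes II, III, IV and V, together with cytochrome c, were followed in mouse bone marrow neutrophils from libraries labelled as Snph knockout and as wild type. The 40 genes were taken as a fixed list of subunits, under older or newer symbols (Atp5a1 is now Atp5f1a, for example), by membership of the complexes and with no cut on measured values, although earlier results of these data were known when the list was drawn up. All 40 were found among the 51789 genes of the table: 4 of complex II, 9 of complex III, 1 for cytochrome c, 11 of complex IV and 15 of complex V. All 40 passed the filter on low counts, which left 10397 genes to be tested. The 6 libraries formed 2 groups, 3 labelled KO (knockout for Snph) and 3 labelled WT (control). Both groups were bone marrow neutrophils taken with Ly6G beads, at a purity above 95% by the labels, and the labels name no strain, age, treatment or kind of knockout allele. Snph encodes syntaphilin, which anchors mitochondria to microtubules, and the series concerns neutrophil migration in cancer. Whether each library came from its own animal is not stated, and p-values therefore reflect no more than the spread among these libraries, part of which may be technical.

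The respiratory chain passes electrons from NADH and succinate to oxygen and pumps protons out of the mitochondrial matrix. Complex II (succinate dehydrogenase) feeds electrons from the citric acid cycle into ubiquinone without pumping. Complex III passes them to cytochrome c, complex IV hands them to oxygen, and complex V (ATP synthase) uses the proton gradient to make ATP. Each complex other than complex II also has subunits made from mitochondrial DNA, which were not analysed here. Mature neutrophils hold few mitochondria and draw most of their ATP from glycolysis.

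Counts of Snph itself ran opposite to the labels. It had 5, 2 and 8 counts in KO 1, 2 and 3 and 0 counts in each WT-labelled library, so every direction below rests on the labels as they stand, and the libraries are called KO-labelled and WT-labelled. Total counts ran from 7179569 to 9165218 in the KO-labelled and from 7018388 to 9664381 in the WT-labelled libraries. KO 3 stood apart from its group on the first principal component, at 3.91 where KO 1 was at -23.5, KO 2 at -29.2 and the WT-labelled libraries at 13.2 to 18.3. Markers of neutrophils were abundant in every library, S100a8 at 137222 ± 6257 CPM in the KO-labelled and 116001 ± 6647 CPM in the WT-labelled libraries (SD, n = 3 each). CPM is a gene's count scaled to a common library size, with each library's total adjusted by a TMM factor.

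Binding motifs of the factors known to drive respiratory genes were present in part of the promoters. NRF1 (nuclear respiratory factor 1) was first described through respiratory genes, and its core motif was searched as GCGCA and GCGC with 1 base of any kind between them, on both strands, from 250 bases before to 50 bases after each gene's start. RefSeq promoter sequences (GRCm38.p6) were matched for 32 of the 40 genes, and 10 of these 32 (31.2%) held the motif, against 5.19% of 27025 genes with a promoter sequence. Those 27025 genes were not limited to the 10397 tested here or to genes as abundant as the 40. The shares below have the same limit. The ETS motif CCGGAAG, which GABP (nuclear respiratory factor 2) recognises, was held by 12 of 32 (37.5%), against 9.93% of all. CCAAT was held by 17 of 32 (53.1%, against 41.1% of all) and the GC box GGGCGG by 12 of 32 (37.5%, against 38.2% of all). Overlap between sites of different motifs was not checked, and a match describes the letters only. Matches from Sdha of complex II, Cox6a1 of complex IV and Atp5h and Atp5k of complex V are shown because they carry the NRF1 motif at different distances from the start, with the motif in capitals and each window read 5′ to 3′ on the minus strand, the strand of all 4 genes.
Sdha, chr13:74350319-74350348: cgtttacaggGCGCAGGCGCaccaccactc
Cox6a1, chr5:115349056-115349085: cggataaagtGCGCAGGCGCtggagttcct
Atp5h, chr11:115420041-115420070: gaccccgacgGCGCAGGCGCcgcgcccgcc
Atp5k, chr5:108434430-108434459: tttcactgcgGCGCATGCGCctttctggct
The window began 108 bases before the RefSeq start in Sdha, 127 in Cox6a1, 151 in Atp5h and 60 in Atp5k. Those of Sdha and Atp5k overlap an annotated exon. In the GENCODE vM21 annotation Atp5k starts at 108434448, inside its window, so its distance depends on the annotation used. Sdha and Cox6a1 each held another match. The median log2 fold change between groups, described next, was 0.08 for the 10 genes with the NRF1 motif and 0.14 for the 22 without it.

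No subunit gene passed the test between groups. By edgeR's quasi-likelihood test 0 of 40 had an adjusted p under 0.05, in a comparison that called 107 of 10397 genes (1.03%), 0.240% as higher and 0.789% as lower. The smallest adjusted p over the 40 genes was 0.157. At an unadjusted p under 0.05 there were 7 genes, or 17.5%, against 11.4% of all tested genes, and all 7 (Cox5b, Cox6c, Atp5h, Atp5j, Atp5j2, Atp5l and Atp5o) lay above 0. DESeq2 called 0 of 40 (1.33% of all genes), limma-voom 0 of 40 (0.789% of all genes), and edgeR without a filter on low counts 1 of 40 (1.46% of all genes), which was Cox7c, described below. The intervals were narrow. For 35 of the 40 genes the 95% interval of the fold change lay within 1.5-fold in either direction, and for 38 within 2-fold. Sdhd and Cox7c had intervals that went past 2-fold, and Cyc1, Cycs and Atp5g2 intervals that went past 1.5-fold.

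**Figure D1:**
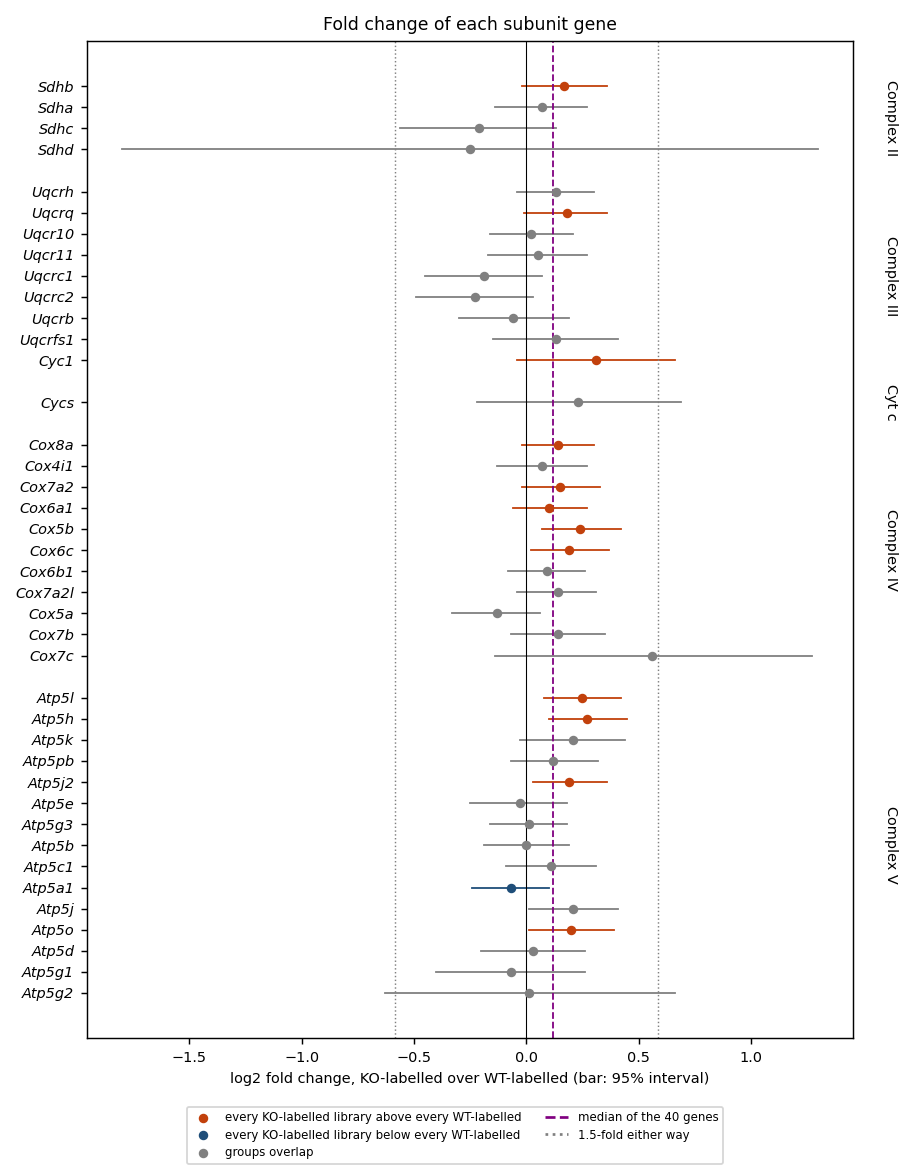
Log2 fold change of each of the 40 subunit genes, KO-labelled over WT-labelled libraries, with its 95% interval, grouped by complex and ordered by level within it. Colour shows whether the 3 libraries of each group overlap, the dashed line is the median of the 40 genes (0.12) and the dotted lines mark 1.5-fold; most points lie between 0 and 0.3, and Sdhd and Cox7c have the widest intervals.

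Most subunit genes nevertheless lay slightly above 0. The log2 fold change was above 0 for 30 and below 0 for 10 of the 40 genes, with a median of 0.12, where all tested genes had a median of 0.01 and 50.9% above 0. In 12 genes every KO-labelled library lay above every WT-labelled library and in 1 (Atp5a1) below, 13 in all; over all tested genes the groups did not overlap for 16.8%, 7.48% higher and 9.32% lower. The subunit genes are abundant, with a median level of 110 CPM against 13.8 CPM over all tested genes, and the fold change moved with abundance in the whole table. The median log2 fold change of all tested genes was -0.10 under 10 CPM, 0.03 from 30 to 100 CPM, 0.06 from 100 to 300 CPM and 0.11 from 300 CPM up. Among the 1340 tested genes of at least 100 CPM the median was 0.08, with 75.7% above 0 and 21.9% higher in every KO-labelled library. The 23 subunit genes of that level had a median of 0.13, with 19 above 0 and 10 higher in every KO-labelled library.

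**Figure D2:**
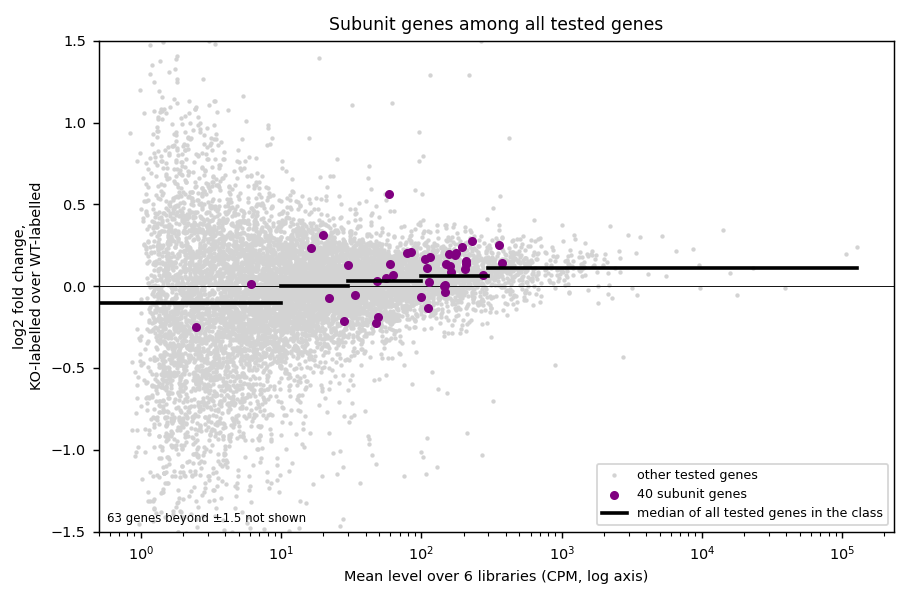
Log2 fold change, KO-labelled over WT-labelled, against mean level in CPM (log axis) for all 10397 tested genes in grey and the 40 subunit genes in purple. Black lines are the medians of all tested genes in classes of level (-0.10 below 10 CPM, 0.11 from 300 CPM up), and most of the subunit genes lie at levels where these medians are above 0.

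The size of this shift depended on the scaling between libraries. TMM factors were 0.949 to 0.98 in the KO-labelled and 1.02 to 1.06 in the WT-labelled libraries. Scaled to total counts only, 21 of the 40 genes lay above 0 and 19 below, a share of 52.5% against 75.0%, and the groups did not overlap for 4 genes higher and 4 lower. That scaling moved the median of all tested genes to -0.10 and of the subunit genes to 0.02, so the distance between both medians was 0.11 under either scaling. As a plain share of all counts, the 40 genes took 0.481%, 0.480% and 0.495% in KO 1, 2 and 3 and 0.483%, 0.475% and 0.478% in WT 1, 2 and 3. These shares overlap between groups. Summed CPM was 5045 ± 37.7 in the KO-labelled and 4629 ± 92.4 in the WT-labelled libraries (SD, n = 3 each), a ratio of 1.09 that became 1.01 with total counts only.

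Markers of other cells moved between the same groups. At an adjusted p under 0.05, 9 of 10 genes of the macrophage list were called as lower in the KO-labelled libraries, against 0.789% of all tested genes. The list's summed level was 633 to 745 CPM in the KO-labelled and 1189 to 1255 CPM in the WT-labelled libraries. In the platelet list 3 of 6 genes, Pf4, Ppbp and Itga2b, were called as lower (the list summed to 385 to 423 and 434 to 496 CPM). Gp1bb, the largest part of that sum at 246 and 237 CPM, lay above 0 (log2 0.05). Gp9 and Itgb3 lay below 0, and none of these was called. In the eosinophil and basophil list 1 of 4 tested genes, Ccr3, was called as lower. Of its other tested genes, Mcpt8 lay below 0 (log2 -1.79, adjusted p = 0.0957 by the edgeR test). Prg2 (0.01) and Siglecf (0.24) lay above 0. In the plasma cell and B cell list 3 of 8 genes, Igkc, Igha and Jchain, were called as higher, against 0.240% of all tested genes. That list summed to 545 to 1320 and 338 to 397 CPM, and KO 2 was the highest for Igkc (658 CPM, with 276 in KO 1 and 238 in KO 3). Ighm, Cd79a, Cd79b and Ms4a1 of the same list lay below 0 and were not called. In the neutrophil list 2 of 12 genes, Retnlg and S100a8, were called as higher, and 11 of the 12 lay above 0. All but Csf3r of this list were above 300 CPM, and 85.4% of all tested genes from 300 CPM up lay above 0. The neutrophil list's sums, mostly S100a8 and S100a9, were 326886 to 348792 CPM in the KO-labelled and 286111 to 307464 CPM in the WT-labelled libraries. No listed promyelocyte (5 genes), cell cycle (11), erythroid (7) or monocyte gene (5 of 6 tested) passed the test. No marker of these lists was at 0 in all 6 libraries. The part of these cells in the subunit values was not tested. In such bulk samples fewer cells of a type and less RNA per cell cannot be told apart.

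The levels of the subunit genes spanned a wide range within each complex. QuantSeq reads 1 tag from the 3′ end of a transcript, so CPM was compared between genes without division by length. The most abundant were Cox8a (377 CPM over the 6 libraries), Atp5l (355), Cox4i1 (273), Atp5h (230), Uqcrh (209) and Cox7a2 (209). The lowest by their own counts were Sdhd (2.49), Atp5g2 (6.11), Cycs (16.2) and Cyc1 (19.9), but near-identical copies of Atp5g2 hold 87.6% of the joint counts, and with them it was at 46.0 CPM in the KO-labelled and 51.5 CPM in the WT-labelled libraries. Compared with each other, the small subunits Uqcrh and Cox7a2 did not differ beyond the spread of the libraries in either group. Cox8a and Atp5l overlapped in the KO-labelled libraries (395 ± 15 and 386 ± 31.1 CPM; SD, n = 3), while in the WT-labelled libraries every Cox8a value lay above every Atp5l value (359 ± 12.0 and 325 ± 8.02 CPM; SD, n = 3).

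**Figure D3:**
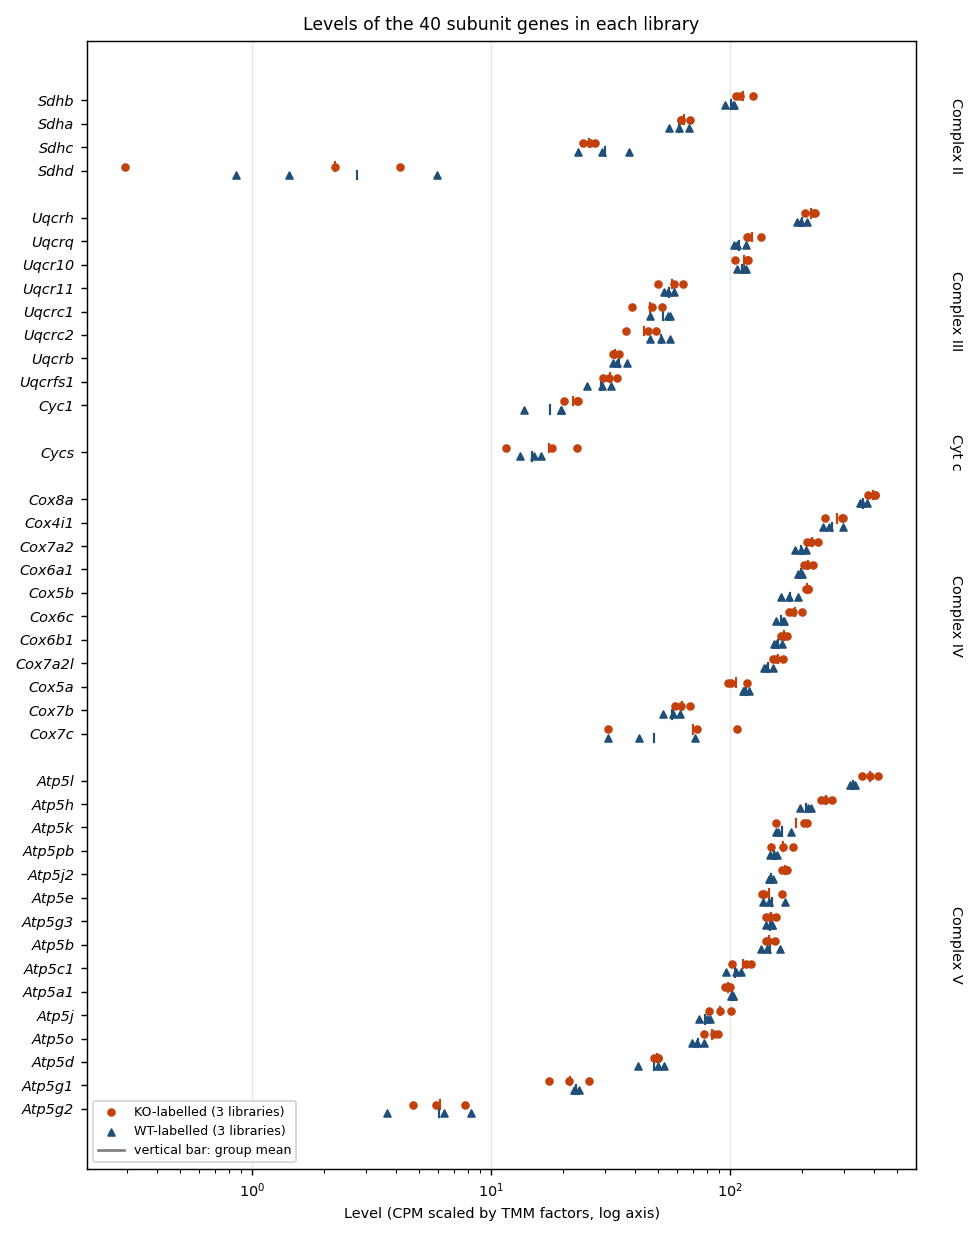
Level of each of the 40 subunit genes in each library, in CPM scaled by TMM factors on a log axis, with KO-labelled libraries (circles) above WT-labelled libraries (triangles) and bars at the group means. Levels run from Sdhd, at 0.294 to 5.93 CPM, to Cox8a, at 348 to 404 CPM, and most genes have closely placed libraries apart from Sdhd, Cox7c and Atp5g2.

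In complex II no subunit passed the test, and the summed level was 205 ± 8.9 CPM in the KO-labelled and 195 ± 0.706 CPM in the WT-labelled libraries (SD, n = 3 each). Sdhb (ENSMUSG00000009863, chromosome 4, 140961203 to 140979193, mm10), the iron-sulphur subunit and the most abundant, was at 124, 110 and 106 CPM in KO 1, 2 and 3 and at 103, 104 and 95.4 CPM in WT 1, 2 and 3. The groups did not overlap, by a narrow margin, and the log2 fold change was 0.17 (SE 0.09, adjusted p = 0.506). Sdhc, a membrane anchor, was at 24.3, 26.0 and 27.1 CPM in the KO-labelled and at 23.1, 29.2 and 37.7 CPM in the WT-labelled libraries. WT 3 was the highest and WT 1 the lowest, so that the groups overlapped (log2 -0.21, SE 0.16, adjusted p = 0.691). The value was -0.02 without WT 3 and -0.37 without WT 1. Sdha, the catalytic flavoprotein, was at 64.1 ± 3.43 and 61.2 ± 6.05 CPM (SD, n = 3). Sdhd, the other membrane anchor, had 31, 2 and 20 counts in KO 1, 2 and 3 and 7, 14 and 44 counts in WT 1, 2 and 3. Its libraries scattered in both groups, its interval ran from -1.80 to 1.30 on the log2 scale, and no difference was detectable within that spread.

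In complex III the accessory subunits Uqcrh, Uqcrq and Uqcr10 were the most abundant and both core proteins lay below 0, with no gene past the test. Summed levels overlapped, at 689 ± 25.3 CPM in the KO-labelled and 660 ± 20.6 CPM in the WT-labelled libraries (SD, n = 3 each). Uqcrh (ENSMUSG00000063882, chromosome 4, 116066965 to 116075071), the hinge protein that contacts cytochrome c1, was at 222, 226 and 206 CPM in the KO-labelled and 209, 198 and 190 CPM in the WT-labelled libraries (log2 0.13, SE 0.08, adjusted p = 0.579). KO 3 lay below WT 1, and the groups overlapped. Uqcrq, an accessory subunit of the membrane part, was at 118, 134 and 119 CPM in the KO-labelled and 104, 116 and 107 CPM in the WT-labelled libraries (log2 0.18, SE 0.09, adjusted p = 0.470). Every KO-labelled library was above every WT-labelled one. Cyc1, which encodes the haem-bearing cytochrome c1, was at 20.2, 23.2 and 22.8 CPM in the KO-labelled and 19.7, 19.6 and 13.7 CPM in the WT-labelled libraries. Its log2 fold change of 0.31 (SE 0.16, adjusted p = 0.504) became 0.17 without WT 3, the lowest library. The core proteins Uqcrc1 (log2 -0.19, SE 0.12) and Uqcrc2 (-0.23, SE 0.12) lay below 0 with overlapping groups, as did Uqcrb (-0.06), and Uqcrfs1, the Rieske iron-sulphur protein, was at 0.13 (SE 0.13). Exons of Uqcrc2 and Uqcrb overlap other genes on the opposite strand, and without a known strand setting their reads cannot be told apart.

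Cytochrome c, the mobile carrier between complexes III and IV and a trigger of apoptosis when released, came from 1 gene of low level. Cycs (ENSMUSG00000063694, chromosome 6, 50562563 to 50566538) was at 11.6, 22.9 and 18 CPM in KO 1, 2 and 3 and at 15.1, 16.1 and 13.2 CPM in WT 1, 2 and 3. KO 1 was the lowest and KO 2 the highest of all 6 libraries. The log2 fold change was 0.23 (SE 0.21, adjusted p = 0.761), and it was -0.00023 without KO 2 and 0.46 without KO 1.

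In complex IV 10 of 11 genes lay above 0 and Cox5a below it, and the summed level was 2066 ± 27.5 CPM in the KO-labelled and 1883 ± 59.6 CPM in the WT-labelled libraries (SD, n = 3 each). No gene passed the test. Cox8a (ENSMUSG00000035885, chromosome 19, 7215153 to 7217616), the most abundant and one of the smallest subunits, was at 378, 404 and 403 CPM in the KO-labelled and 372, 348 and 356 CPM in the WT-labelled libraries (log2 0.14, SE 0.07, adjusted p = 0.507). Cox5b (ENSMUSG00000061518, chromosome 1, 36691449 to 36693681), a zinc-binding subunit on the matrix side, was at 211, 208 and 211 CPM in the KO-labelled and 192, 177 and 163 CPM in the WT-labelled libraries. The KO-labelled libraries lay close together and above all WT-labelled ones, and its log2 fold change of 0.24 (SE 0.08) had an adjusted p of 0.242. Cox6c was at 199, 183 and 177 CPM in the KO-labelled and 166, 168 and 155 CPM in the WT-labelled libraries (log2 0.19, SE 0.08, adjusted p = 0.382), again without overlap. Cox8a, Cox6a1 (0.10) and Cox7a2 (0.15) were the other genes of complex IV whose groups did not overlap.

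Cox4i1, the regulatory subunit that binds ATP, was at 279 ± 26.6 CPM in the KO-labelled and 267 ± 27.1 CPM in the WT-labelled libraries (SD, n = 3 each). Cox5a, another matrix-side subunit, was at 106 ± 11.2 and 116 ± 3.92 CPM (SD, n = 3), with a log2 fold change of -0.13 (SE 0.09). Cox7a2l (ENSMUSG00000024248, chromosome 17, 83501918 to 83517330), also known as SCAF1, joins complexes III and IV into supercomplexes. It was at 151, 167 and 156 CPM in the KO-labelled and 151, 141 and 139 CPM in the WT-labelled libraries (log2 0.14, SE 0.08, adjusted p = 0.583), and KO 1 and WT 1 met at the same level.

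Cox7c could not be read from its own counts alone. The gene (ENSMUSG00000017778, chromosome 13, 86044816 to 86046904) had 795, 209 and 652 counts in KO 1, 2 and 3 and 252, 407 and 529 counts in WT 1, 2 and 3, a spread of 3.8-fold among the KO-labelled libraries. Its log2 fold change was 0.56 (SE 0.33, adjusted p = 0.570), it ran from 0.14 without KO 1 to 0.96 without WT 3, and it was called when no filter on low counts was used (adjusted p = 1.1e-04 in edgeR). Annotated genes that repeat the last 300 bases of its transcripts (at least 95% identity over at least 100 bases) numbered 4, and they held 60.4% of the counts of gene and copies together. The copy Gm10012 on chromosome 17, a transcribed processed pseudogene, had 392, 543 and 650 counts in the KO-labelled and 602, 728 and 531 counts in the WT-labelled libraries. Gm12338 on chromosome 11 had 112 to 195 counts per library and the others had 0. With the counts of gene and copies summed, Cox7c was at 184, 128 and 163 CPM in the KO-labelled and 119, 136 and 161 CPM in the WT-labelled libraries, a log2 fold change of 0.19 (SE 0.13, adjusted p = 0.641). The summed values overlapped between groups.

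**Figure D4:**
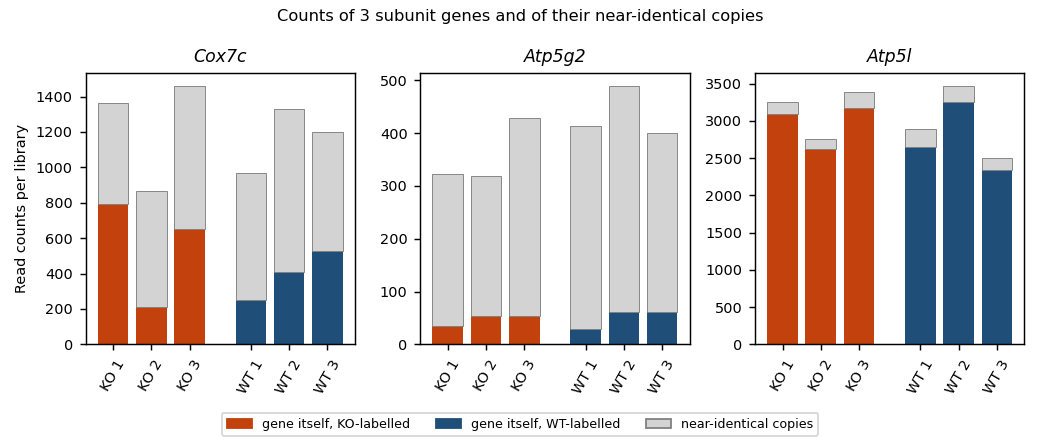
Read counts per library for Cox7c, Atp5g2 and Atp5l (coloured) and for their near-identical copies in the table (grey, stacked on top), with KO-labelled libraries left of WT-labelled libraries. The copies hold 60.4% of the stacked counts for Cox7c, 87.6% for Atp5g2 and 6.07% for Atp5l, and the coloured part of Cox7c runs from 209 to 795 counts while the whole bar runs from 867 to 1459.

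Copies of this kind were a smaller matter for most of the other genes. By the same criterion 16 of the 40 genes had at least 1 copy in the table, 36 copies in all. Beyond Cox7c, the copies held over 5% of the counts for Atp5g2 and Atp5l and at most 1.19% for any other gene. With copies summed for all 40 genes, 0 were called and the median log2 fold change stayed at 0.12.

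In complex V the 4 peripheral stalk genes and Atp5l, Atp5j2 and Atp5k lay above 0 at 0.12 to 0.27, the F1 genes at -0.07 to 0.11, and no gene passed the test. Summed levels were 2066 ± 2.1 CPM in the KO-labelled and 1876 ± 38.8 CPM in the WT-labelled libraries (SD, n = 3 each), without overlap. Scaled to total counts only, they were 1995, 1959 and 2023 CPM in the KO-labelled and 1924, 1950 and 1962 CPM in the WT-labelled libraries, which overlap, and the sums of complexes II and IV overlapped as well. Atp5h (ENSMUSG00000034566, chromosome 11, 115415689 to 115419962), subunit d of the peripheral stalk, was at 240, 267 and 250 CPM in the KO-labelled and 211, 218 and 196 CPM in the WT-labelled libraries. All KO-labelled libraries were above all WT-labelled ones, and the log2 fold change of 0.27 (SE 0.08, interval 0.10 to 0.45) had the smallest adjusted p of the 40 genes, 0.157. DESeq2 gave it an adjusted p of 0.0503, and over all alternatives its adjusted p ran from 0.0503 to 0.396. Atp5l (ENSMUSG00000038717, chromosome 9, 44912557 to 44920742), the membrane subunit g that takes part in pairing the enzyme into dimers, was at 417, 386 and 355 CPM in the KO-labelled and 326, 332 and 316 CPM in the WT-labelled libraries (log2 0.25, SE 0.08, adjusted p = 0.196). Its groups did not overlap either. Of the other stalk genes, Atp5o (the OSCP subunit, which joins stalk and head) was at 0.20 (SE 0.09), Atp5j (subunit F6) at 0.21 (SE 0.09) and Atp5pb (subunit b) at 0.12 (SE 0.09). Of the other membrane genes, Atp5j2 (subunit f) was at 0.19 (SE 0.08) and Atp5k (subunit e) at 0.21 (SE 0.11). KO 3 was at 156 CPM for Atp5k, inside the WT-labelled range of 155 to 180 CPM.

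The F1 head carries out catalysis. Atp5b, the catalytic beta subunit, was at 146 ± 7.1 CPM in the KO-labelled and 147 ± 14.2 CPM in the WT-labelled libraries (SD, n = 3 each), and Atp5a1, the alpha subunit, at 97.8 ± 2.63 and 102 ± 1.4 CPM (SD, n = 3; log2 -0.07, SE 0.08). Atp5a1 was the 1 gene with every KO-labelled library below every WT-labelled one, and its interval ran from -0.24 to 0.10. Atp5c1 (gamma), Atp5d (delta) and Atp5e (epsilon), the parts of the rotating central stalk, were at 0.11, 0.03 and -0.03. The alpha subunit gene, Atp5d, Atp5j, Atp5l, Atp5o and Atp5pb have exons that overlap other genes on the opposite strand, as do Cox4i1, Cox5a and Cox6c of complex IV. On the same strand, Atp5o overlaps another annotated gene of that name, which has no counts of its own here, and Atp5g2 overlaps Mir688.

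**Figure D5:**
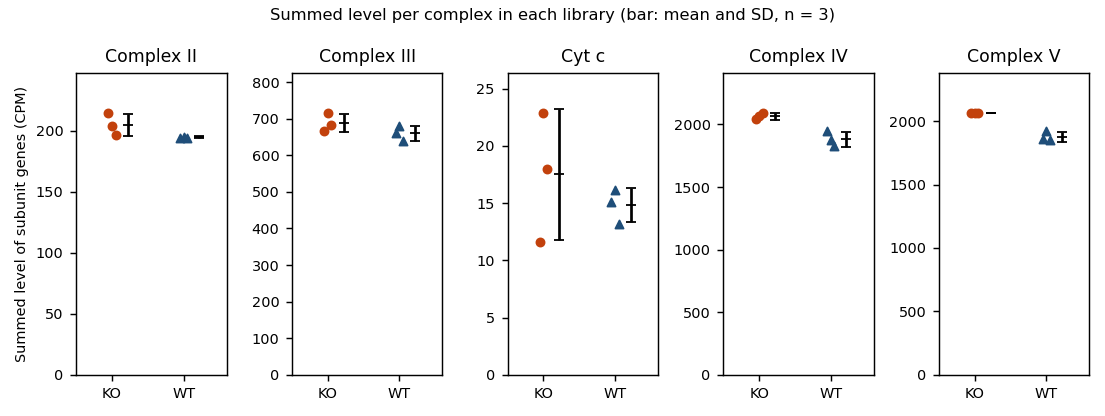
Summed level of the subunit genes of each complex in CPM for each library, KO-labelled (circles) left of WT-labelled (triangles), with mean and SD (n = 3) beside the points and axes from 0. Complex IV averages 2066 CPM in the KO-labelled and 1883 CPM in the WT-labelled libraries and complex V 2066 and 1876 CPM, without overlap under TMM factors but with overlap under total counts only, while the groups overlap for complex III and cytochrome c.

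Of the 3 genes for the c ring, the rotor that protons turn, Atp5g3 supplied most of the counts. Atp5g1, Atp5g2 and Atp5g3 encode the same mature protein with different import sequences. Atp5g3 was at 147, 141 and 155 CPM in the KO-labelled and 150, 149 and 141 CPM in the WT-labelled libraries, Atp5g1 at 21.2, 17.4 and 25.7 and at 23.3, 22.2 and 22.4 CPM, and Atp5g2 at 4.72, 7.79 and 5.91 and at 3.68, 6.34 and 8.22 CPM. The groups overlapped for all 3 genes, with log2 fold changes of 0.01 (Atp5g3), -0.07 (Atp5g1) and 0.01 (Atp5g2), the last with an interval from -0.63 to 0.66. Atp5g3 took 84.3% ± 1.07 of the counts of the 3 genes in the KO-labelled and 83.6% ± 1.30 in the WT-labelled libraries (SD, n = 3 each). An exact two-sided permutation test of the shares gave p = 0.5 for Atp5g3, 0.6 for Atp5g1 and 1.0 for Atp5g2 (adjusted p of at least 0.9 over the 3). With 3 libraries against 3 its smallest possible p is 0.1, so no share could have passed, and the test does not show that the shares are alike. Atp5g2 was the gene most affected by copies: Gm10175 on chromosome 7, a transcribed processed pseudogene whose sequence matched the last 300 bases of Atp5g2 in full, had 287, 265 and 376 counts in the KO-labelled and 383, 427 and 339 counts in the WT-labelled libraries, where Atp5g2 itself had 30 to 62. With copies summed, Atp5g2 was at 46.0 ± 2.33 CPM in the KO-labelled and 51.5 ± 2.10 CPM in the WT-labelled libraries (SD, n = 3 each; log2 -0.16, SE 0.10, adjusted p = 0.580), and Atp5g3 took 69.2%, 68.7% and 67.8% in the KO-labelled and 67.0%, 67.4% and 64.9% in the WT-labelled libraries. These shares did not overlap, which gives the smallest p the exact permutation test allows, 0.1 (adjusted p = 0.3).

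Among other genes of the same machinery no list held a called gene. Of 36 assembly factors of complexes II to V, 31 were tested and 13 (41.9%) lay above 0 (median log2 fold change -0.05). Many of these factors were of low level, and of all tested genes under 10 CPM 40.1% lay above 0 (median -0.10). Sdhaf4, an assembly factor of succinate dehydrogenase, was at 2.73 ± 0.667 CPM in the KO-labelled and 4.99 ± 0.665 CPM in the WT-labelled libraries (SD, n = 3 each; log2 -0.87, SE 0.32, adjusted p = 0.291), and Coa5, a complex IV assembly factor, at -0.23 (SE 0.11, adjusted p = 0.445). Of 15 further subunits, tissue isoforms and regulators of the complexes, 7 were tested (median 0.15). Higd1a, a hypoxia-induced protein that binds complex IV, was at 42.6 ± 2.00 CPM in the KO-labelled and 29.7 ± 7.18 CPM in the WT-labelled libraries (SD, n = 3 each; log2 0.51, SE 0.15, adjusted p = 0.154), and its relative Higd2a at 118 ± 6.66 and 98.3 ± 2.33 CPM (log2 0.27, SE 0.08, adjusted p = 0.176). Both had groups that did not overlap. Atpif1, the inhibitor that stops ATP synthase from running in reverse, was at 88.5 ± 6.51 and 90.3 ± 6.61 CPM (SD, n = 3; log2 -0.03, SE 0.09).

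The tissue-restricted isoforms were nearly silent beside their ubiquitous partners. Cox7b2, Cox8b, Cox8c and Cyct, the testis form of cytochrome c, had 0 counts in all 6 libraries, which allows up to 0.307 to 0.441 CPM per library by a floor of 3 counts (counting error only). Cox4i2, the lung isoform of Cox4i1, had 1 count in all, and Cox6a2 and Cox7a1, the muscle isoforms, had 10 and 22. Cox7a1 had 0, 2 and 0 counts in KO 1, 2 and 3 and 6, 5 and 9 counts in WT 1, 2 and 3, below the filter on low counts. Cox6b2, the testis isoform, had 100 counts in all and was tested, unlike the isoforms above (log2 -0.49, SE 0.53, adjusted p = 0.811).

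Of 13 regulators of nuclear respiratory genes 8 were tested, with a median of 0.06. Nrf1 was at 49.7 ± 6.99 CPM in the KO-labelled and 43.2 ± 5.72 CPM in the WT-labelled libraries (SD, n = 3 each; log2 0.21, SE 0.13, adjusted p = 0.598), and Tfb2m, a transcription factor of mitochondrial DNA, at 3.19 ± 0.452 and 5.19 ± 1.43 CPM (log2 -0.71, SE 0.32, adjusted p = 0.409). The coactivator gene Ppargc1a, a driver of mitochondrial biogenesis in muscle and brown fat, had 1 count over all 6 libraries. The 36 nuclear subunit genes of complex I stood close to those of complexes II to V. They had a median of 0.11 with 27 above 0. In 6 the groups did not overlap with KO-labelled libraries higher (7.48% over all tested genes) and in 1 with them lower (9.32% over all), and 0 were called (1.03% over all). Ndufs8 was at 0.32 (adjusted p = 0.382) and Ndufa6 at 0.20 (adjusted p = 0.358).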

How the data were processed

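The authors deposited 1 table of raw counts, whole numbers for each Ensembl identifier, for 6 Lexogen QuantSeq libraries. Per the submitters' processing notes, the tools were RSEM (version 1.2.3) and DESeq2 and the build mm10, without their roles. The aligner, annotation release, strand setting and filters were not given in the sources used here, and near-identical genes may share counts. Columns were assigned by sample titles. Names, positions and transcripts came from GENCODE vM21 (GRCm38), which named 51596 of 51789 identifiers.

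Counts were tested in R 4.3.3 by edgeR's quasi-likelihood test (version 4.0.16, TMM factors, filterByExpr with a minimum count of 10 and total of 15), group as the one term, with Benjamini-Hochberg adjustment over 10397 genes. SE is the log2 fold change divided by the square root of F; intervals are 95%. Members, lists and motifs were chosen with earlier results of these data known. Fully described genes are the most abundant and the 2 of smallest p per complex, Cycs, the c-ring genes, Cox7a2l, genes called in any fit, and 2 per further list; others were named after their values were seen. Alternatives used DESeq2 1.42.0 and limma-voom (limma 3.58.1), other scalings and filters, a replicate block and leaving out each library. Replicates were checked against sampling noise (chi-square per degree of freedom 4.12 to 6.79), and none matched another. The procedure was tested on simulated data.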

Additional observations from a re-analysis of the deposited data

How the results depend on the processing

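The 40 genes had 0 calls as lower under every alternative run (39 genes with the stricter filter, which left out Sdhd) and 0 as higher under all but 1, the fit with no filter on low counts, which called 1 (Cox7c, log2 0.56, adjusted p = 1.1e-04); the cause was not tested. Calls over all genes numbered 162 with total counts only, 287 with no filter and 49 to 97 without 1 library, against 107. The median log2 fold change of the 40 genes was 0.02 with total counts only and 0.08 to 0.13 without 1 library, the lowest without KO 3. Groups did not overlap for 8 genes with total counts only and for 15 to 19 without 1 library, where fewer samples make overlap rarer. The ratio of summed levels was 1.07 with upper-quartile factors, 1.01 with total counts only and 1.08 to 1.1 without 1 library. Directions turned for genes near 0. Atp5g2 was at -0.01 with upper-quartile factors and with the stricter filter, at -0.09 with total counts only, at -0.16 with copies summed (an alternative chosen after seeing the data) and at -0.24 to 0.28 without 1 library. Atp5g3 was at -0.01, -0.09 and -0.01 under these scalings and that filter, in the order upper quartile, total counts, filter, and at -0.03 to 0.04 without 1 library, Atp5g1 at -0.23 to 0.05 and Cycs at -0.00023 to 0.46. The difference in c-ring share, in percentage points, was -1.93 for Atp5g2 with copies summed, and without 1 library it ran from -0.642 to 0.708 for Atp5g2, -1.54 to 0.113 for Atp5g1 and -0.0314 to 1.30 for Atp5g3. Samples of the same number did not deviate together (correlations of -0.0262, -0.0118 and -0.131). This does not settle whether the numbers pair the samples, since a pairing need not leave a shared deviation. With the replicate block 92 genes were called, 0 of them among the 40, and the median stayed at 0.12. No sample correlated best with the sample of its own number in the other group. Sdhd, Atp5g2 and Cycs had 118, 294 and 782 counts in all. Sdhd scattered beyond counting error in both groups (chi-square per degree of freedom 11.8 in the KO-labelled and 24.7 in the WT-labelled libraries). Cycs did so in the KO-labelled libraries (12.7, against 0.76 in the WT-labelled) and Atp5g2 in the WT-labelled libraries (7.19, against 2.57 in the KO-labelled).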

Other observations

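Scatter beyond counting error was uneven among the 40 genes. The chi-square per degree of freedom of a gene's counts within a group had a median of 3.0 over the 40 genes and both groups. It was 148 in the KO-labelled and 79.0 in the WT-labelled libraries for Cox7c, and 11.8 and 24.7 for Sdhd, for which no near-identical copy was found. Atp5k reached 30.9 in the KO-labelled libraries, where KO 3 was the lowest.

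Transcript length and fold change were also set side by side. Length was the median over each gene's annotated protein-coding transcripts, short ones included (533 bases for Uqcrc1). The length of the transcripts present in these cells was not measured. The median log2 fold change of all tested genes was 0.04 for genes under 600 bases by this measure and -0.04 for those of at least 4000 bases. The 14 subunit genes under 600 bases had a median of 0.12 and the 13 from 600 to 1000 bases 0.15.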
